A study of Homo sapiens with 6 samples.

Results

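The genes described here are 9 regulators that set or mark breast cell identity: the hormone receptor genes ESR1, PGR and NR3C1, the lineage factors GATA3, FOXA1, ELF5 and FOXC1, and the AP-2 factors TFAP2A and TFAP2C. They were chosen by name, and their values are sums of the counts of all transcripts that the GENCODE annotation on GRCh37 gives to each gene, so they are 9 of the 61014 genes summed. LncRNA-seq libraries were made from paclitaxel (PTX)-resistant MDA-MB-231 cells, a triple-negative breast cancer line, after flow sorting on aldehyde dehydrogenase (ALDH) activity. The question was which transcripts differ between BCSC (breast cancer stem cells, sorted as ALDH+) and non-BCSC (sorted as ALDH−), with 3 libraries each. All 6 libraries come from the same resistant line, a single line as a model, and the groups were taken from the sample titles. The labels do not say that the 3 libraries of a group came from separate cultures, so p-values here measure only the spread between these libraries.

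Oestrogen receptor alpha (ESR1), progesterone receptor (PGR) and the glucocorticoid receptor (NR3C1) are nuclear receptors that bind steroid hormones and then act on DNA as transcription factors. In mammary epithelium GATA3 and FOXA1 maintain the hormone-responsive luminal state, and FOXA1 opens chromatin for oestrogen receptor binding. ELF5 drives the alveolar, milk-producing lineage, FOXC1 is typical of basal-like tumours, and the AP-2 factors act in luminal and other epithelial programmes. Triple-negative lines are defined by the absence of oestrogen and progesterone receptor protein and of ERBB2 amplification, while the glucocorticoid receptor is widely used across tissues.

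The BCSC libraries held between 15925943 and 21215352 counts, and the non-BCSC libraries between 9898588 and 12263667. Where a library had 0 counts of a gene, counting error alone allows as many as 3, a limit of 0.141 to 0.303 CPM (counts relative to library size). This limit takes each count as independent. CPM values below use library sizes scaled by TMM (trimmed mean of M values). A gene was called changed at a Benjamini-Hochberg adjusted p under 0.05 over all 20442 genes tested (edgeR quasi-likelihood test) and a fold above 2. Markers of the line were present in all 6 libraries. The mesenchymal filament VIM stood at 3418 ± 412 CPM in BCSC and 2793 ± 506 in non-BCSC (SD, n = 3 each), and EGFR, CAV1 and CD44 were also above background in all 6.

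Of the 9 genes, 8 had enough counts to be tested. None was called higher in BCSC (edgeR, 0 of 8, also 0 at any fold, 0 with DESeq2 and 0 at an unadjusted p under 0.05), where 8.85% of all genes tested were called higher. PGR alone was called lower, where 11.3% of all genes were. Without the fold minimum the counts stayed at 0 and 1, against 15.3% of all genes higher and 14.6% lower. The groups did not overlap for GATA3, with all 3 BCSC libraries above (24.2% of all genes), or for ESR1 and PGR, with all 3 below (27.9% of all genes). The other 6 overlapped. The median log2 fold change (BCSC over non-BCSC) of the 8 genes was −0.11, and that of all genes tested was −0.05. In bulk libraries fewer cells of a kind and less RNA per cell cannot be told apart.

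**Figure D1:**
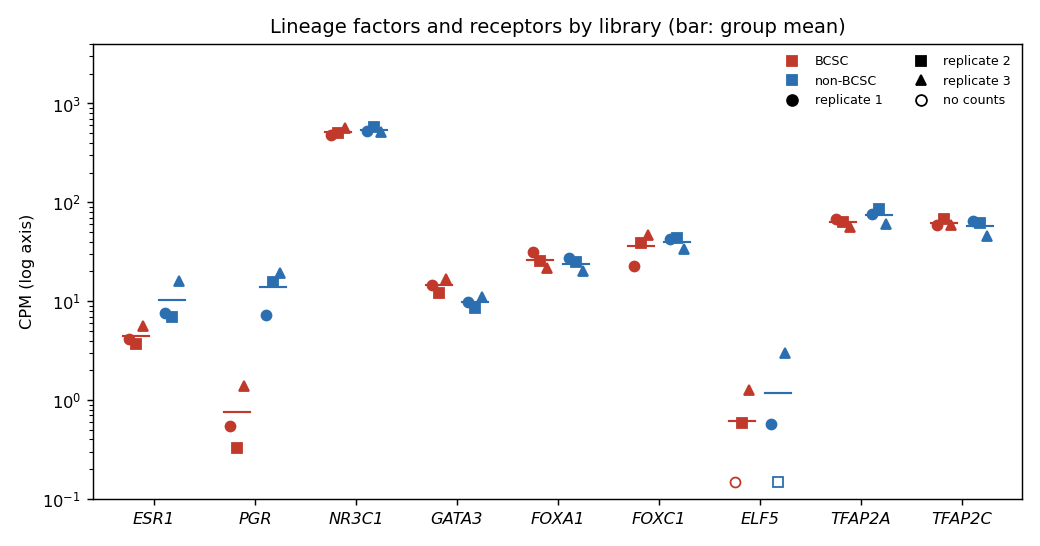
CPM (log axis) of each gene in every library, BCSC in red and non-BCSC in blue, with the replicate shown by the symbol, open symbols for libraries without counts and a bar at each group mean. NR3C1 lies near 500 CPM in both groups, PGR is the gene with the widest gap (0.326 to 1.39 CPM in BCSC against 7.26 to 19.1), and the AP-2 genes overlap between groups.

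The genes fell into a well-counted and a sparsely counted part. To place them, each gene's CPM per kb of merged exons was set beside the 95th percentile of 407 olfactory receptor genes in the same library, genes that serve smell and stand here for background. That percentile was 0.210, 0.271 and 0.514 CPM per kb in BCSC and 1.72, 2.10 and 2.99 in non-BCSC, so the background itself was higher in every non-BCSC library. NR3C1, TFAP2C, FOXC1, TFAP2A, FOXA1 and GATA3 were above it in 6 of 6 libraries. ESR1 was above it in BCSC replicate 1 alone, and PGR and ELF5 in no library. GATA3 was the closest of the 6 to the limit, at 9.63 to 20.3 times the percentile in BCSC but 1.08 to 1.69 times in non-BCSC. With each gene's length weighted by its counted transcripts, GATA3 passed in 5 of 6 libraries and ESR1 in 3 of 6. ESR1 then stood at 1.13, 0.989 and 1.51 CPM per kb in BCSC, each above its limit (0.263, 0.343 and 0.645). In non-BCSC it stood higher, at 2.08, 1.89 and 4.338, but under limits that were higher too (2.26, 2.54 and 4.339). Non-BCSC replicate 3 was thus all but at its limit. Against the median of the olfactory receptor genes per kb of merged exons, a looser limit, ESR1 and PGR were above in 6 of 6 libraries and ELF5 in 2. That median was 0 in BCSC replicates 1 and 2.

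**Figure D2:**
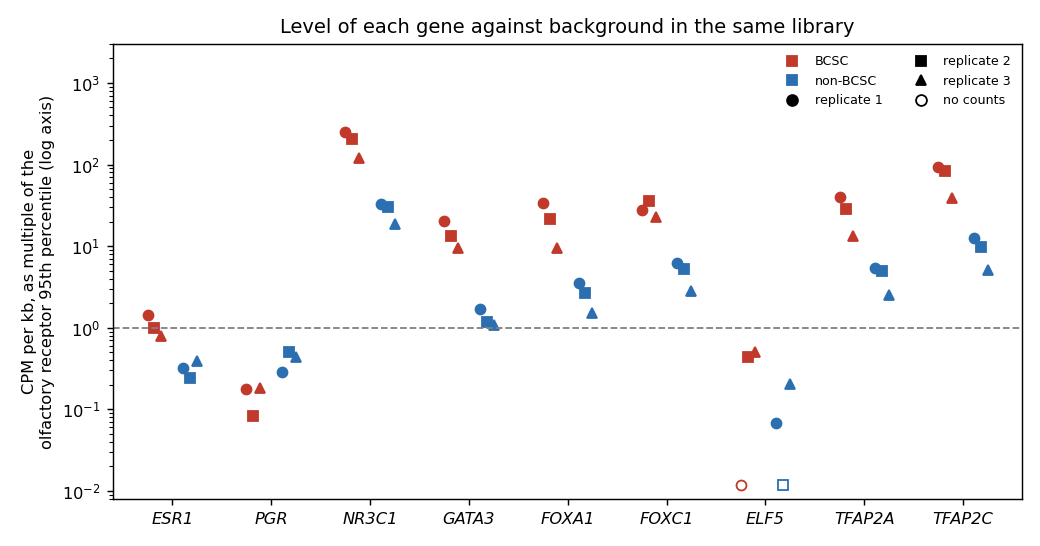
Level per kb of each gene as a multiple of the olfactory receptor 95th percentile in the same library (log axis), with the dashed line at 1 and open symbols for libraries without counts. NR3C1 reaches 18.6 to 250 times background, GATA3 in non-BCSC lies just above the line, and PGR and ELF5 lie below it in all 6 libraries.

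On the CPM per kb scale the order in BCSC was NR3C1 (56.5 ± 4.84), TFAP2C (20.6 ± 1.55), FOXC1 (9.02 ± 2.99), TFAP2A (7.63 ± 0.764), FOXA1 (5.94 ± 1.14), GATA3 (4.27 ± 0.679), ESR1 (0.326 ± 0.0718), ELF5 (0.126 ± 0.129) and PGR (0.0513 ± 0.0383; SD, n = 3). NR3C1, TFAP2C and the gene after them did not overlap with each other, and GATA3 lay 13.1 times above ESR1 with no overlap. FOXC1, TFAP2A, FOXA1 and GATA3 overlapped each with its neighbour, as did ELF5 and PGR. In non-BCSC the first 6 kept this order, from 58.6 ± 4.10 for NR3C1 to 2.87 ± 0.361 for GATA3. The last 3 changed places there, with PGR (0.949 ± 0.412) and ESR1 (0.745 ± 0.366) overlapping each other, and ESR1 overlapping ELF5 (0.241 ± 0.321). The order depends on the length used. With length weighted by counted transcripts, TFAP2A (24.7, 22.8 and 20.2 in BCSC) lay above FOXC1 (5.75, 9.70 and 11.6) without overlap, also in non-BCSC. TFAP2A then overlapped TFAP2C in BCSC. GATA3 (4.87, 4.09 and 5.64) stayed above ESR1 (1.13, 0.989 and 1.51) in BCSC by a smaller gap, and the 2 overlapped in non-BCSC.

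NR3C1 (ENSG00000113580, chr5:142657496-142815077, minus strand), the glucocorticoid receptor gene, was by far the most abundant of the receptors. Its level was 481, 504 and 567 CPM in BCSC against 522, 579.9 and 509.6 in non-BCSC. The libraries of the groups were interleaved, and the highest value was non-BCSC replicate 2. The mean was 517 ± 44.3 CPM in BCSC and 537 ± 37.6 in non-BCSC (SD, n = 3), a log2 fold change of −0.05 (edgeR adjusted p 0.713, SE 0.10). With the olfactory receptor background removed it was −0.44 (edgeR adjusted p 0.0264), short of a fold of 2. That removal took few NR3C1 counts, from 9769 to 9761 in BCSC replicate 1 and from 5314 to 5195 in non-BCSC replicate 3.

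The NR3C1 counts were split over 17 annotated transcripts, of which 11 had counts. NR3C1-203 held 7309, 5900 and 8496 counts in BCSC against 6212, 6466 and 51 in non-BCSC, whereas NR3C1-202 held 1807, 1552 and 743 in BCSC against 0, 0 and 5001 in non-BCSC. In non-BCSC replicate 3 the share of NR3C1-203 was thus 0.960% of the gene, and NR3C1-202 took 94.1%. These transcripts share all 8 coding stretches of their exons (2331 coding bases) and 7 of 9 whole exons, so they differ only outside the coding sequence. A second pair differs inside the coding sequence. NR3C1-201 carries 3 extra bases at the end of a coding exon that NR3C1-203 lacks, and held 400, 21 and 18 counts in BCSC against 0, 67 and 0 in non-BCSC. The stretch around that boundary (GRCh37, chr5:142693540-142693590, minus strand, read 5′ to 3′ in the sense of the gene) is shown because it is the one place where these coding sequences differ, with the extra bases in capitals and intron after them.
NR3C1 exon boundary: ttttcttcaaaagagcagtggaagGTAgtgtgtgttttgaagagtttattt

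ESR1 (ENSG00000091831, chr6:151977826-152450754, plus strand), the gene of oestrogen receptor alpha, was counted 85, 56 and 92 times in BCSC against 93, 79 and 167 times in non-BCSC. This was 4.19, 3.65 and 5.56 CPM in BCSC against 7.67, 6.98 and 16.02 in non-BCSC. All 3 BCSC libraries were below all 3 non-BCSC libraries, and non-BCSC replicate 3 was far above the rest. The log2 fold change was −1.19 (SE 0.44, unadjusted p 0.0235, edgeR adjusted p 0.0678), which did not pass the correction. It did pass, and was called lower, with DESeq2 (−1.25, adjusted p 0.0365), with at least 10 counts asked of every library (−1.35, edgeR adjusted p 0.0262), with the replicate number as a block (−1.11, edgeR adjusted p 0.0468), as well as after correction of GC content (−1.51, edgeR adjusted p 0.0274). Without non-BCSC replicate 3 it was −0.69 (edgeR adjusted p 0.278). Against the background percentile ESR1 stood at 0.788 to 1.45 times in BCSC and 0.242 to 0.391 times in non-BCSC. After removal of the mean olfactory receptor count per kb, ESR1 kept 73, 43 and 55 counts in BCSC against 0, 0 and 0 in non-BCSC, the opposite order of the groups. This removal used the merged exon length of 13726 bases. The ESR1 length weighted by counted transcripts was 3692 bases, and removal at that length was not run. The opposite order is therefore shown for the merged length only.

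Most ESR1 counts belonged to ESR1-202, with 69, 37 and 81 counts in BCSC against 86, 51 and 89 in non-BCSC (log2 fold change −0.83, edgeR adjusted p 0.534 over all transcripts, SE 0.55). ESR1-206 held 6, 8 and 11 in BCSC against 0, 28 and 78 in non-BCSC, and in non-BCSC replicate 3 it took 46.7% of the gene beside 53.3% for ESR1-202. SYNE1, a nuclear envelope gene on the opposite strand, overlaps the ESR1 locus and was counted 1683, 1172 and 1166 times in BCSC against 868, 841 and 850 times in non-BCSC, in total 1150 per cent of the ESR1 counts. The libraries keep strand, but whether the counting used it is not given in the sources used here, so reads of the overlap cannot be told apart.

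PGR (ENSG00000082175, chr11:100900355-101000544, minus strand), a classical oestrogen receptor target as well as a receptor, was the one gene called. It had 11, 5 and 23 counts in BCSC against 88, 175 and 199 in non-BCSC, or 0.542, 0.326 and 1.39 CPM against 7.26, 15.5 and 19.1. The groups were widely separated. The mean was 0.753 ± 0.563 CPM in BCSC and 13.9 ± 6.06 in non-BCSC (SD, n = 3), a log2 fold change of −4.19 (edgeR adjusted p 0.00218, SE 0.64), or 18.3-fold lower. The call held without any 1 of the libraries, at −4.95 to −3.81 on the log2 scale (edgeR adjusted p 0.00225 to 0.0176).

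PGR was nevertheless under the background percentile in each library, at 0.0820 to 0.184 times in BCSC and 0.288 to 0.5004 times in non-BCSC. It was above the olfactory receptor median in each. Olfactory receptor genes moved the same way. Their summed level was 41.2, 57.5 and 153 CPM in BCSC against 544, 701 and 1166 in non-BCSC, and of the 136 that could be tested 69 were called lower (50.7%) and 0 higher, with a median log2 fold change of −3.34. The markers of other cell types were also higher in non-BCSC in sum. The 9 of them on file added up to 3.79 to 6.47 CPM in BCSC and 23.4 to 42.0 in non-BCSC, 2 of 4 tested were called lower and 0 higher, and none was above background in all libraries. With the olfactory receptor background removed, PGR kept 0, 0 and 0 counts in BCSC against 0, 51 and 9 in non-BCSC, too few to be tested. The part of this background in the PGR difference was not otherwise tested. Nearly all PGR counts (91.6%) were of PGR-202, the long coding transcript (log2 fold change −3.98, edgeR adjusted p 0.0763 over all transcripts, SE 0.83). The retained-intron transcript PGR-206 held 7.19%, with 0, 0 and 0 counts in BCSC against 11, 25 and 0 in non-BCSC. The antisense gene PGR-AS1 had 14 counts in non-BCSC replicate 3 and 0 in the other libraries.

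GATA3 (ENSG00000107485, chr10:8087341-8117161, plus strand), a zinc finger factor of luminal cells, was counted 295, 187 and 278 times in BCSC against 119, 96 and 114 times in non-BCSC. Its level was 14.5, 12.2 and 16.8 CPM in BCSC against 9.82, 8.48 and 10.9 in non-BCSC, so the lowest BCSC library was just above the highest non-BCSC library. The mean was 14.5 ± 2.31 against 9.74 ± 1.23 CPM (SD, n = 3), a log2 fold change of 0.57 (edgeR adjusted p 0.148, SE 0.28), which did not pass. After correction for GC content and length the estimate was −0.32 (edgeR adjusted p 0.495, SE 0.32), of the opposite sign.

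In BCSC replicates 1 and 2 the GATA3 difference, which was not called, lay largely in 1 transcript, GATA3-201. In BCSC replicate 3 GATA3-202 held 91.7% of the gene. GATA3-202 held 177, 108 and 255 counts in BCSC against 119, 96 and 114 in non-BCSC, and GATA3-201 held 110, 79 and 23 in BCSC against 0, 0 and 0 in non-BCSC. GATA3-201 was thus counted in 3 of 3 BCSC libraries and in no non-BCSC library (unadjusted p 0.00355, edgeR adjusted p 0.0774 over all transcripts). The coding sequences differ by 3 bases at the start of 1 exon, 1332 coding bases in GATA3-202 against 1329 in GATA3-201, and the transcripts share 3 of 6 exons. The stretch around that exon start (GRCh37, chr10:8105932-8105982, plus strand) is shown with the 3 bases that GATA3-201 lacks in capitals, intron before them and exon after them. The sequence holds an ag both just before and within these letters, so the forms differ by which ag ends the intron.
GATA3 exon boundary: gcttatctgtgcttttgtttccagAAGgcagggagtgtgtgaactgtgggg

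FOXA1 (ENSG00000129514, chr14:38058757-38065264, minus strand), the forkhead factor that prepares chromatin for oestrogen receptor, was counted 641, 390 and 357 times in BCSC against 328, 279 and 210 times in non-BCSC. Its level was 31.6, 25.4 and 21.6 CPM in BCSC against 27.1, 24.6 and 20.1 in non-BCSC. In both groups replicate 1 was the highest and replicate 3 the lowest, and the groups overlapped. The mean was 26.2 ± 5.04 against 23.95 ± 3.52 CPM (SD, n = 3), a log2 fold change of 0.13 (edgeR adjusted p 0.692, SE 0.23). FOXA1-201 carried 92.2% of its counts and FOXA1-204 the other 7.80%. TTC6, on the opposite strand, overlaps the locus and had 73 to 134 counts in BCSC and 104 to 182 in non-BCSC, 32.4 per cent of those of FOXA1 in total.

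ELF5 (ENSG00000135374, chr11:34500338-34546740, minus strand), an ETS factor of luminal progenitors and alveolar cells, was close to silent. It had 0, 9 and 21 counts in BCSC against 7, 0 and 31 in non-BCSC, of ELF5-202 (77.9%) and ELF5-205 (22.1%). Both groups had 1 library at 0, replicate 3 was the highest in each, and the gene had too few counts to be tested. The 0 allows up to 0.141 CPM in BCSC replicate 1 and 0.263 CPM in non-BCSC replicate 2.

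FOXC1 (ENSG00000054598, chr6:1610150-1614132, plus strand), the forkhead factor of basal-like cells, has 1 transcript on file, FOXC1-201. It was counted 465, 592 and 765 times in BCSC against 519, 498 and 348 times in non-BCSC. Its level was 22.9, 38.6 and 46.3 CPM in BCSC against 42.8, 43.998 and 33.4 in non-BCSC, so BCSC held both the lowest and the highest library. The mean was 35.9 ± 11.9 against 40.1 ± 5.83 CPM (SD, n = 3), a log2 fold change of −0.16 (edgeR adjusted p 0.667, SE 0.26). Without BCSC replicate 1 the estimate was 0.09 (edgeR adjusted p 0.798).

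TFAP2C (ENSG00000087510, chr20:55204362-55214339, plus strand), which encodes AP-2 gamma, was the most abundant of the 9 genes per kb of merged exons after NR3C1. With length weighted by counted transcripts, TFAP2A was above TFAP2C in each non-BCSC library. The TFAP2C level was 58.8, 67.2 and 59.5 CPM in BCSC against 64.3, 61.3 and 45.7 in non-BCSC, with non-BCSC replicate 3 below the other 5. The mean was 61.8 ± 4.65 against 57.1 ± 9.96 CPM (SD, n = 3), a log2 fold change of 0.11 (edgeR adjusted p 0.626, SE 0.16). All of its counts were of 1 transcript, TFAP2C-201.

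TFAP2A (ENSG00000137203, chr6:10393419-10419892, minus strand), which encodes AP-2 alpha, was at 68.6, 63.5 and 56.1 CPM in BCSC against 76.7, 84.8 and 61.1 in non-BCSC. The non-BCSC libraries tended to be higher, but the lowest of them was inside the BCSC range. The mean was 62.7 ± 6.28 against 74.2 ± 12.1 CPM (SD, n = 3), a log2 fold change of −0.24 (edgeR adjusted p 0.271, SE 0.16). TFAP2A-AS2, which overlaps it on the opposite strand, had 6.36% of its counts.

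TFAP2A, like NR3C1, was spread over 11 transcripts with counts, of 19 on file. TFAP2A-202 held 549, 377 and 347 counts in BCSC against 683, 0 and 0 in non-BCSC, and TFAP2A-203 held 190, 310 and 197 in BCSC against 36, 669 and 389 in non-BCSC. All 3 BCSC libraries thus carried both forms, while each non-BCSC library was dominated by one of them, TFAP2A-202 in replicate 1 and TFAP2A-203 in replicates 2 and 3. The retained-intron transcript TFAP2A-210 held 326, 103 and 217 counts in BCSC against 185, 191 and 121 in non-BCSC, between 10.6% and 23.4% of the gene. TFAP2A-212, also of the retained-intron type, held 229, 110 and 125 in BCSC against 0, 56 and 87 in non-BCSC, in total 10.4% of the gene. TFAP2A-202 and TFAP2A-203 share 6 of 7 coding exons and differ in the first, which holds the start codon (in capitals) and so gives AP-2 alpha a different first stretch. The first coding exon of TFAP2A-202 is 27 bases (GRCh37, chr6:10411803-10411829, minus strand) and that of TFAP2A-203 is 51 bases (GRCh37, chr6:10415174-10415224, minus strand).
TFAP2A-202 first coding exon: ATGttagttcacagtttttcagccatg
TFAP2A-203 first coding exon: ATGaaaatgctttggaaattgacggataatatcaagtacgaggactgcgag

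In all, 39 of the 80 transcripts of the 9 genes on file had counts and 18 could be tested. None was called (edgeR, 0 of 18, with 3 at an unadjusted p under 0.05), where 0.597% of all transcripts tested were called higher and 0.187% lower. The 3 were GATA3-201 and NR3C1-209, at 0 in all non-BCSC libraries, and PGR-202. Reads that lie in several transcripts of a gene have to be divided between them, so a switch in the RNA and a change in that division cannot be told apart, and the sum per gene does not depend on it.

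**Figure D3:**
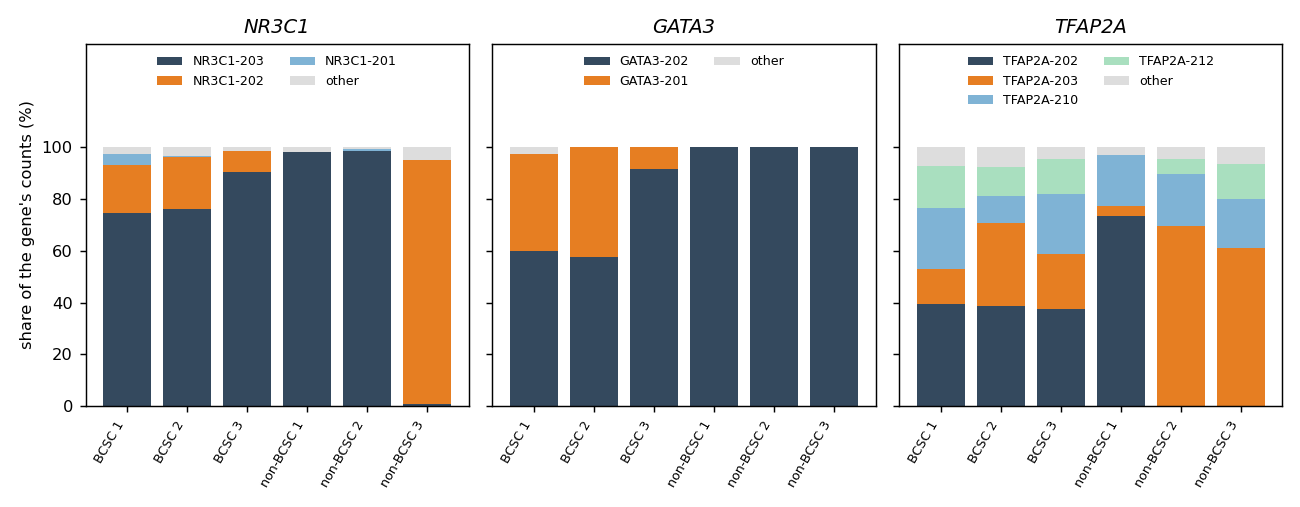
Share of each gene's counts (%) held by its main transcripts in every library, as stacked bars for NR3C1, GATA3 and TFAP2A. NR3C1-202 takes 94.1% of NR3C1 in non-BCSC replicate 3, GATA3-201 appears in BCSC libraries alone (8.27 to 42.2%), and TFAP2A-202 is at 0% in non-BCSC replicates 2 and 3.

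GC content moved with the group difference across genes, and most of the 9 genes are GC-rich. Over the 20442 genes tested the rank correlation of log2 fold change with GC content was 0.545, as a description across genes, which share libraries. The 8942 genes under 45% GC had a median log2 fold change of −0.59, and the 4143 genes from 54 to 64% GC had one of 0.91, with 83.2% above 0. Pairs of libraries also differed with GC within a group, with rank correlations of 0.103 to 0.571, against 0.276 to 0.601 between groups. TFAP2C (62.0% GC), GATA3 (60.4%), FOXA1 (56.9%), FOXC1 (56.3%) and TFAP2A (55.6%) all lie in the 54 to 64% band, and their log2 fold changes of −0.24 to 0.57 were each under the median of that band. The low-GC median came largely from sparsely counted genes. Among the 8474 genes averaging 200 counts or more per library (rank correlation 0.532), the median was 0.09 around 45% GC, where NR3C1 lies (44.6% GC, −0.05), 0.77 around 55%, 0.98 around 57%, 1.28 around 61% and 1.15 around 63%.

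With counts corrected for GC content and length, the AP-2 and forkhead genes were all estimated lower in BCSC. TFAP2A was at −0.86 (edgeR adjusted p 0.00283, SE 0.15), TFAP2C at −0.82 (SE 0.20, adjusted p 0.0155), FOXA1 at −0.61 (SE 0.17, adjusted p 0.0250) and FOXC1 at −0.77 (SE 0.32, adjusted p 0.0959) on the log2 scale, all short of a fold of 2. NR3C1 moved to 0.09 (SE 0.10, adjusted p 0.560). ESR1 was called lower under this correction (−1.51, adjusted p 0.0274, SE 0.43), and PGR stayed called at −4.39. When the mean level was corrected as well, TFAP2A was at −0.81 (edgeR adjusted p 0.00161), and TFAP2C (−0.53, adjusted p 0.0512), FOXA1 (−0.45, adjusted p 0.0766) and ESR1 (−0.91, adjusted p 0.0858) no longer passed. The sign of TFAP2C, FOXA1 and GATA3 therefore depended on whether GC content was corrected. That of TFAP2C and FOXA1 also depended on removal of the background (−0.23 and −0.05). TFAP2A was below 0 in each of these fits. With the background removed, NR3C1 (−0.44, edgeR adjusted p 0.0264) and TFAP2A (−0.52, edgeR adjusted p 0.0442) passed the correction as lower in BCSC, short of a fold of 2.

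**Figure D4:**
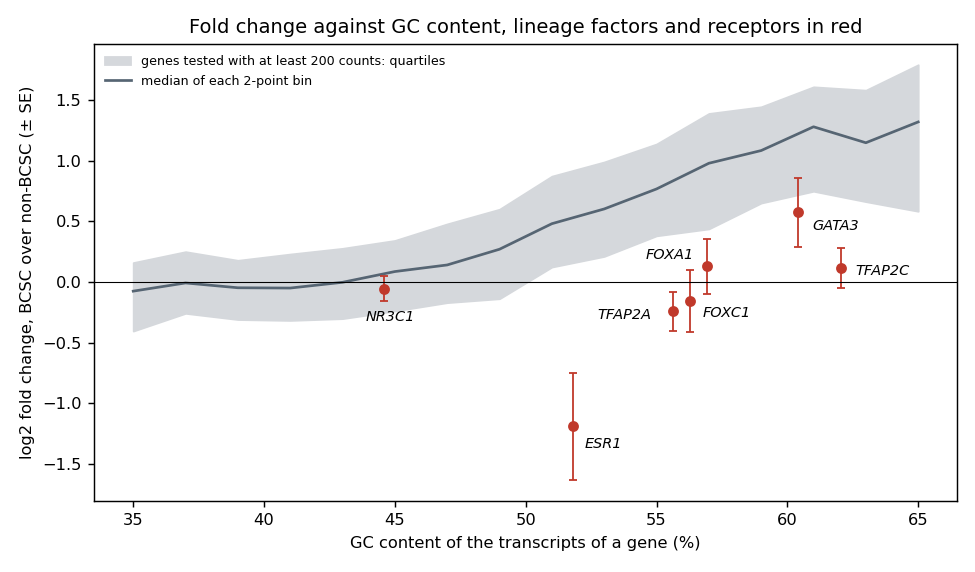
Log2 fold change (± SE) against GC content for 7 of the 9 genes in red, over the median (line) and quartiles (grey) of tested genes averaging 200 counts or more, in bins of GC content. ESR1 and GATA3 themselves average fewer. The line climbs from about 0 below 45% GC, and TFAP2A, FOXC1, FOXA1, GATA3 and TFAP2C lie under it.

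**Figure D5:**
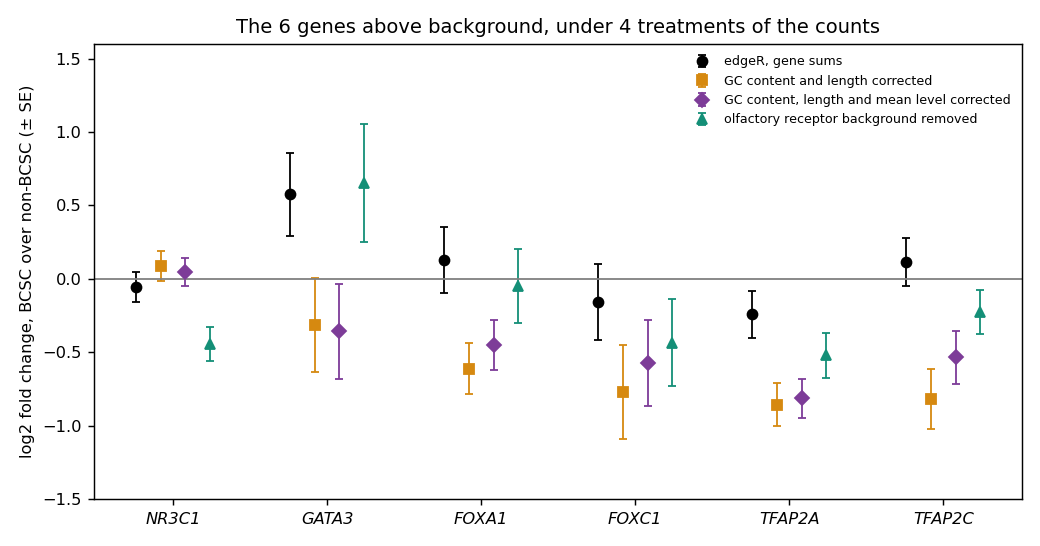
Log2 fold change (± SE, 3 BCSC against 3 non-BCSC libraries) of the 6 genes above background, with 4 treatments of the counts. NR3C1 stays between −0.44 and 0.09, TFAP2A is below 0 in each, and GATA3, FOXA1 and TFAP2C change sign with the GC correction, FOXA1 and TFAP2C also with the background removed. In that last treatment all of these genes but GATA3 move down. There NR3C1 (edgeR adjusted p 0.0264) and TFAP2A (edgeR adjusted p 0.0442) pass the correction as lower, short of a fold of 2.

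The partners of the receptors were examined next, as gene lists of which the counts are given with the shares over all genes (8.85% higher, 11.3% lower, median log2 fold change −0.05). The median over all genes includes sparsely counted genes. Among the well-counted genes described above it rose with GC content, from 0.09 around 45% GC to 0.77 around 55% and 1.28 around 61%. The lists here and below were not matched to other genes by GC content or counts. Whether the median or share of a list differs from that of similar genes was not tested. Of 16 receptor chaperones and coregulators tested, 1 was called higher and 0 lower, with a median of 0.36. The one called was CREBBP, a histone acetyltransferase that serves as a receptor coactivator, at 177 ± 31.1 CPM in BCSC and 73.9 ± 2.06 in non-BCSC (log2 fold change 1.26, edgeR adjusted p 0.000588, SE 0.14). HSP90AA1, the chaperone that holds unliganded steroid receptors, passed the correction in the other direction but not the fold (−0.43, edgeR adjusted p 0.00589, SE 0.08), at 3395 ± 167 against 4584 ± 202 CPM.

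Of 15 genes known as glucocorticoid receptor targets tested, 4 were called higher and 1 lower, with a median of 0.79, while NR3C1 itself was not called. TNFAIP3, an inhibitor of NF-kB signalling, was at 40.8 ± 3.72 CPM in BCSC and 9.04 ± 1.71 in non-BCSC (log2 fold change 2.17, edgeR adjusted p 0.000468, SE 0.23). BIRC3, an inhibitor of apoptosis, was at 76.6 ± 17.6 against 27.3 ± 2.11 CPM (1.49, adjusted p 0.00114, SE 0.20). The metallothionein MT2A was at 234 ± 24.1 against 69.5 ± 29.3 CPM (1.75, adjusted p 0.00199, SE 0.26). PER1, a circadian repressor named only to complete the count, was the fourth. FKBP5, a cochaperone that dampens the receptor and is among its best known targets, was lower, at 223 ± 9.53 against 499.6 ± 62.7 CPM (−1.16, edgeR adjusted p 0.000294, SE 0.11), and at −0.97 with GC content corrected it was short of a fold of 2. TNFAIP3 was above background in the 3 BCSC libraries alone, and it was not called with the background removed (edgeR adjusted p 0.0757) or with protein-coding transcripts alone (2.91, SE 1.39, edgeR adjusted p 0.193).

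Of 11 oestrogen receptor targets tested, 0 were called higher and 2 lower, with a median of −0.50. AGR2, a protein disulphide isomerase, fell from 32.2 ± 8.56 CPM in non-BCSC to 0.866 ± 0.998 in BCSC (log2 fold change −5.23, edgeR adjusted p 0.00239, SE 0.81). CA12, a carbonic anhydrase, was at 2.59 ± 0.607 CPM in BCSC and 9.77 ± 0.734 in non-BCSC (−1.91, adjusted p 0.00943, SE 0.41), above background in 2 libraries, and was not called with the background removed (adjusted p 0.424). The best known targets, TFF1 and TFF3, had too few counts to be tested. CCND1, the cyclin of the early cell cycle, was the most abundant and passed at any fold (0.91, adjusted p 0.000516, SE 0.10), but its estimate was −0.10 with GC content corrected.

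Among 13 tested paralogues of the 9 genes, 2 were called higher and 2 lower, with a median of 0.47. The ETS factor ELF4 was at 48.9 ± 8.31 CPM in BCSC and 9.91 ± 2.68 in non-BCSC (log2 fold change 2.30, edgeR adjusted p 0.000579, SE 0.25). EHF, an epithelial ETS factor close to ELF5, was at 91.8 ± 19.8 against 404 ± 29.5 CPM (−2.14, adjusted p 7.68e-05, SE 0.16) and stayed called under all alternatives run. NR3C2, the mineralocorticoid receptor and nearest relative of NR3C1, was at 18.9 ± 0.653 against 8.43 ± 2.58 CPM (1.16, adjusted p 0.0170, SE 0.29). The orphan receptor ESRRG was lower (−1.98, adjusted p 0.0256, SE 0.56) but under the background percentile in all 6 libraries. With the background removed neither NR3C2 (edgeR adjusted p 0.245) nor ESRRG (0.873) was called, nor with protein-coding transcripts alone (NR3C2 0.99, edgeR adjusted p 0.0586, and ESRRG −2.35, edgeR adjusted p 0.0705). ESRRG was not called with GC content, length and mean level corrected (−0.37, edgeR adjusted p 0.559). NR3C2 was no longer called without BCSC replicate 1 (edgeR adjusted p 0.0556), BCSC replicate 2 (0.0692) or non-BCSC replicate 3 (0.05003), and ESRRG without BCSC replicate 1 (0.0673), BCSC replicate 2 (0.0794), non-BCSC replicate 1 (0.0720) or non-BCSC replicate 3 (0.0818).

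Lineage markers were called lower in part of the luminal list and higher in part of the basal list. Of 6 luminal epithelial markers tested, 0 were called higher and 3 lower, with a median of −1.18. KRT8, a keratin of simple epithelia, was at 6.59 ± 1.82 CPM in BCSC and 58.6 ± 10.01 in non-BCSC (log2 fold change −3.15, edgeR adjusted p 0.000129, SE 0.26), and its partner KRT18 was at 1.85 ± 0.802 against 11.0 ± 1.28 CPM (−2.56, adjusted p 0.00489, SE 0.47). KIT, a receptor of luminal progenitors, was at 15.6 ± 3.08 against 40.4 ± 9.58 CPM (−1.38, adjusted p 0.00482, SE 0.25). The KIT estimate turned to 1.47 with protein-coding transcripts alone (SE 1.51, edgeR adjusted p 0.520). Correction for GC content, length and mean level left it short of a fold of 2 (−0.95). ERBB2, the growth factor receptor, was above background in all 6 libraries and not called (−0.28, adjusted p 0.220, SE 0.16), but was called lower with GC content corrected (−1.12, edgeR adjusted p 0.000749). EPCAM, KRT19, SPDEF, CLDN3, CLDN7 and MUC1 had too few counts to be tested, and CLDN3 was at 0 in all 6 libraries.

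Of 9 basal and mesenchymal markers tested, 3 were called higher and 0 lower, with a median of 0.78. CAV1, the coat protein of caveolae, was at 570 ± 15.2 CPM in BCSC and 231 ± 21.4 in non-BCSC (log2 fold change 1.30, edgeR adjusted p 8.65e-05, SE 0.10). ITGB4, an integrin of the basal surface, was at 199.9 ± 71.1 against 67.3 ± 15.3 CPM (1.57, adjusted p 0.00257, SE 0.25), and MYLK, a myosin kinase, at 33.6 ± 1.17 against 16.7 ± 2.44 CPM (1.01, adjusted p 0.00748, SE 0.20). With GC content corrected, ITGB4 (0.47) and MYLK (0.77) were short of a fold of 2. MYLK was also short of it with RLE size factors (0.92), DESeq2 (0.95), at least 10 counts in every library (0.86) or thinned counts (0.93), and without BCSC replicate 3 (0.98) or non-BCSC replicate 3 (0.91), and did not pass with protein-coding transcripts alone (edgeR adjusted p 0.0748). CAV1 was short of it with the background removed (0.91). VIM was not called (0.29, edgeR adjusted p 0.139, SE 0.14).

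Of 13 other mammary lineage factors tested, 2 were called higher and 2 lower, with a median of −0.06. TBX3, a T-box factor of the mammary line, was at 45.6 ± 3.26 CPM in BCSC and 16.01 ± 2.19 in non-BCSC (log2 fold change 1.51, edgeR adjusted p 0.00104, SE 0.19), and STAT5B, which carries prolactin and growth hormone signals, at 32.7 ± 4.18 against 12.02 ± 1.86 CPM (1.44, adjusted p 0.00258, SE 0.23). TP63, the factor of basal cells, was at 9.60 ± 1.90 against 26.6 ± 4.76 CPM (−1.47, adjusted p 0.00471, SE 0.27), and ID4, an inhibitor of helix-loop-helix factors, at 3.45 ± 1.35 against 10.3 ± 2.97 CPM (−1.58, adjusted p 0.0285, SE 0.46). With the background removed neither STAT5B (edgeR adjusted p 0.1002) nor ID4 (0.159) was called, STAT5B was not called with protein-coding transcripts alone (0.503), and ID4 was not with GC content, length and mean level corrected (0.0826). ID4 was no longer called without BCSC replicate 1 (edgeR adjusted p 0.0628), BCSC replicate 2 (0.113), non-BCSC replicate 1 (0.0534) or non-BCSC replicate 2 (0.114). SOX9, a progenitor factor and the most abundant of this list per kb, passed at any fold but not a fold of 2 (−0.49, adjusted p 0.0148, SE 0.12). Of the markers of other cell types, the leukocyte gene PTPRC (0.579 ± 0.503 against 18.8 ± 4.98 CPM) and the liver gene ALB (0.706 ± 0.208 against 5.30 ± 2.69 CPM) were called lower, both under the background percentile in all 6 libraries, and ALB was not called with protein-coding transcripts alone (edgeR adjusted p 0.126), with the background removed (0.0558), or without BCSC replicate 1 (edgeR adjusted p 0.0572), BCSC replicate 2 (0.0597) or non-BCSC replicate 3 (0.0636).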

How the data were processed

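The authors aligned adapter-trimmed reads with HISAT2 to hg19 per the study's methods, while the submitters' processing notes name hg38, HISAT2, featureCounts and DESeq2. The annotation and the strand setting of the counting are not given in the sources used here. Library preparation kept strand (dUTP). The deposited values are counts per transcript, in whole numbers and not normalized, and were taken as estimated counts. This was inferred from the values: in genes with 1 transcript a count of 2 occurred 11344 times and a count of 1 8616 times. That pattern does not by itself show how the values were made.

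By identifier 249787 of 252618 transcripts (98.9%) matched GENCODE on GRCh37, the 2831 others (0.229 to 0.341% of counts, 4 of them assembler-made identifiers) were left out, and coordinates and sequences are GRCh37. Counts were summed per gene and tested in edgeR 4.0.16 (R 4.3.3, limma 3.58.1) with TMM, filterByExpr and a robust quasi-likelihood model of group (common biological coefficient of variation 0.453), the thresholds following the study's RNA-seq methods. GC content and length were corrected per library by loess (span 0.3) on genes averaging at least 200 counts.

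The members and lists were chosen with earlier results of these data known. From each list up to 3 genes called higher and 3 called lower (mean of at least 50 counts, smallest p) and the most abundant per kb were named, with opposite-strand neighbours, transcripts of at least 5% of a gene's counts and the most alike genes. Values of 2 of these genes are not reported here. In simulated data with log2 changes of 2 the test recovered 200 of 200 genes at a dispersion of 0.05 (4 false calls among 22081 genes) and 94 of 200 at 0.2 (4 among 22166). The dispersion is the square of the biological coefficient of variation, so 0.2 is the setting near the common value of these data. A gene not called may therefore still differ. Alternatives were RLE size factors, DESeq2 1.42.0, other count filters, a replicate block, no minimum fold, protein-coding transcripts alone, GC correction, removal of the olfactory receptor background (each library's mean count per kb over these genes times a gene's length), thinning, and each library left out.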

Additional observations from a re-analysis of the deposited data

How the results depend on the processing

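PGR stayed the one gene called lower of the 9, and none was called higher, with RLE size factors, no filter, no minimum fold, protein-coding transcripts alone, GC content, length and mean level corrected, counts thinned to the smallest library and each library left out in turn. With at least 10 counts in every library the count lower was also 1, but it was ESR1 (−1.35, edgeR adjusted p 0.0262), since PGR, with 5 counts in BCSC replicate 2, was not tested. The count lower was 2 with DESeq2, with the replicate block and with GC content and length corrected, ESR1 being the second in each, and 7 with the GC correction fitted from 10 counts, a setting chosen after seeing the data that overcorrected well-counted genes (rank correlation with GC −0.562 after it, 0.00465 after the planned one). With the olfactory receptor background removed it was 0, and the count higher was 1, for ESR1 with a fitted log2 fold change of 8.40 that rests on a group at 0 and is no measure of size. That ESR1 value also rests on the merged exon length, 13726 bases against 3692 weighted by counted transcripts. RLE moved the median of all genes by −0.09, the GC correction by 0.08 and the background removal by −0.07 (log2). The background removal moved well-counted genes further than that median, NR3C1 from −0.05 to −0.44 and EHF from −2.14 to −2.54.

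Over all genes, the number higher (1810) was 3125 with no minimum fold, 909 with protein-coding transcripts only, 748 with GC content and length corrected, 815 with the mean level corrected as well (also chosen after seeing the data), and 959 (without BCSC replicate 1) to 2230 with 1 library left out. The number lower (2307) was 4904 with DESeq2, 1177 with at least 10 counts in every library, 735 with protein-coding transcripts only and 668 with the background removed, and 1103 (without non-BCSC replicate 3) to 3004 with 1 library left out, also 1198 without BCSC replicate 1 and 1143 without BCSC replicate 2. The causes were not tested.

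Signs turned as follows. With GC content and length corrected, then with the mean level as well, then fitted from 10 counts, the log2 fold change of NR3C1 was 0.086, 0.045 and 0.24, of GATA3 −0.32, −0.36 and −1.15, of FOXA1 −0.61, −0.45 and −1.16, and of TFAP2C −0.82, −0.53 and −1.81. CCND1 was −0.10 with the first and −0.91 with the last, VIM −0.24 and −0.56, ITGB4 −0.24 with the last and HSP90AA1 0.0056 with the mean level. With the background removed FOXA1 was −0.052, TFAP2C −0.23 and VIM −0.11. With at least 10 counts in every library FOXA1 was −0.018 and TFAP2C −0.034. With protein-coding transcripts alone FOXA1 was −0.041, TFAP2C −0.033, VIM −0.034 and KIT 1.47, and with no filter NR3C1 was 0.019. With 1 library left out NR3C1 ran from −0.13 to 0.049, FOXA1 from −0.027 to 0.28, FOXC1 from −0.40 to 0.088 and TFAP2C from −0.0017 to 0.26.

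The replicate numbers were checked as pairs: the deviations of same-numbered libraries correlated at 0.247, 0.0405 and 0.260, and each library correlated best with its own number, a hint from the data and not the design. With the replicate block 1994 genes were higher and 2321 lower, and ESR1 was called (−1.11, edgeR adjusted p 0.0468).

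Depth limits ESR1, PGR and ELF5, whose counts lie near background. GATA3 had 96 counts or more in each library and the other 5 genes 210 or more.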

Other observations

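The genes whose log2 CPM followed each of the 8 tested genes most closely over the 6 libraries were looked up among 12575 other genes averaging at least 50 counts, as a description with no test, since with 6 libraries and so many genes high values of r are found for any profile. Among the 3 genes most like FOXA1 were ACIN1 (Pearson r 0.996) and PRPF6 (0.991). Among the 3 genes most like PGR were LRP2, an endocytic receptor (0.998), and PCLO, a synaptic protein (0.996). ESR1 was most like PRNCR1 (0.996), TSPAN19 and TRIM59. NR3C1 was most like CMPK1 (0.973), PNRC1 and PHF6, GATA3 most like RPP30 (0.989), TRIAP1 and NPL, and FOXC1 most like THAP6 (0.995), ODF2L and MED7. TFAP2A was most like CCNY (0.987), TMSB4X and GCNT2, and TFAP2C most like RGS10 (0.992), PCYOX1 and MGAT2. None of the most alike genes was another of the 9.

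Of the opposite-strand neighbours of the lineage factors, GATA3-AS1, which starts beside GATA3, was at 0 in all 6 libraries, and TFAP2A-AS1 had at most 9 counts in any library. The other 2 had enough counts to be tested, and neither was called. TFAP2A-AS2 had 70, 43 and 65 counts in BCSC against 61, 78 and 53 in non-BCSC (log2 fold change −0.74, edgeR adjusted p 0.256, SE 0.47). TTC6, opposite FOXA1, stood at −1.07 on the same scale (edgeR adjusted p 0.0573, SE 0.38), with 73 to 182 counts per library.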
